A study of Rattus norvegicus with 6 samples.

Results

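The genes examined were those that encode the enzymes setting and removing methyl and acetyl groups on histones. They were chosen by name. A gene was a member when its symbol was made of Kmt, Kdm, Hdac, Sirt, Setd, Prmt, Kat or Ezh followed by a number and at most 1 letter. In all, 70 of the 33294 gene symbols counted met this rule. The rule uses names alone, but it was set with earlier results of these data known. Of these, 34 were writers, which add a group, and 35 were erasers, which take it off. The writers were 18 lysine methyltransferases, 8 arginine methyltransferases and 8 lysine acetyltransferases. These classes follow the family names, and the activity on histones is not established for every member. The erasers were 18 lysine demethylases, 10 zinc-dependent deacetylases and 7 sirtuins. Hdac1l, named for its likeness to Hdac1, was kept apart, since reads shared with Hdac1 may be counted for either gene.

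RNA was sequenced from the pituitary glands of male Sprague-Dawley rats that were 11 weeks old. The 3 rats of the nicotine group were born to dams that carried a subcutaneous osmotic pump delivering nicotine tartrate at 6 mg/kg/day, and the 3 control rats to dams whose pump held saline only. The pumps were of a 28-day type and births followed 13 days after surgery, and the labels do not say how long nicotine delivery went on after birth. Each rat gave 1 library, and the labels do not say whether rats of a group shared a dam. The question was whether transcripts of histone enzymes differed in the adult gland after this exposure. Histone marks were measured in the same work, in testis.

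A methyl group on a histone lysine can accompany active or silent chromatin, depending on the residue. Most enzymes of the Kmt2 and Setd1 families methylate lysine 4 of histone H3, a mark of promoters and enhancers in use. Ezh1 and Ezh2 methylate lysine 27 of H3 in the Polycomb repressive complex, a mark of silenced genes. Lysine demethylases of the Kdm families reverse these marks. Acetyl groups are added by Kat enzymes, in general at active genes, and are removed by the zinc-dependent Hdac enzymes and the NAD-dependent sirtuins. Many of these proteins also modify targets other than histones. The pituitary is the gland from which growth hormone, prolactin, gonadotropins and other hormones are released.

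Promoter windows from RefSeq (rat assembly GRCr8), 250 bases before to 50 after the transcript start, were found for 57 of the 70 genes. Only the first listed start of each gene was used, so other promoters of a gene were not examined. No window was matched for Kdm6a, Sirt6, Hdac11, Hdac1l, Prmt3, Kat2a, Kat6a, Ezh1, Kmt2a, Kmt2d, Kmt2e, Setd5 and Setd7. The upstream 250 bases of 3 members are printed because these genes had the smallest unadjusted p-values between the groups. Capitals mark every match, on either strand, to CCAAT, to the GC box GGGCGG, or to any of 4 further motifs named after the sequences. All 3 read from 5′ to 3′ along the strand of the gene.
Setd1a, chr1:191818502-191818751, plus strand: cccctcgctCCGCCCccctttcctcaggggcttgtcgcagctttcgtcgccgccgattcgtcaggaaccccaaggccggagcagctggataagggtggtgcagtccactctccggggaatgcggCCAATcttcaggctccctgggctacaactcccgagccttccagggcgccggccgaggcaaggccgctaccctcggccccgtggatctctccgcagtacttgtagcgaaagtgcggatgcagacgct
Prmt8, chr4:162303346-162303595, minus strand: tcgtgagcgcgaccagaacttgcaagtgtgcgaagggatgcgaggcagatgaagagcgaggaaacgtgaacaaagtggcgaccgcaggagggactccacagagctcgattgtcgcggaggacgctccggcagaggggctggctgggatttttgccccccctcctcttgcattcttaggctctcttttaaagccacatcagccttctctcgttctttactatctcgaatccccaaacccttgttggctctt
Hdac9, chr6:57052572-57052821, minus strand: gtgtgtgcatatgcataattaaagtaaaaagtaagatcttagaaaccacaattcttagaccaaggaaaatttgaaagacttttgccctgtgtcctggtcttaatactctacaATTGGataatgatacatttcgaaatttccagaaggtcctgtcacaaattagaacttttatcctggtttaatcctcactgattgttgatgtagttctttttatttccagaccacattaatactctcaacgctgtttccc

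The Setd1a window was rich in CpG, with 29 CpG dinucleotides in 300 bases, a CCAAT box and a GC box. The Prmt8 window held 18 CpG and none of the motifs. The Hdac9 window had 37% GC, 2 CpG and 1 CCAAT box read on the opposite strand. CpG-rich windows were the rule among the histone enzyme genes. The ratio of observed to expected CpG was over 0.6 in 53 of 57 windows (93.0%), against 36.8% of the 27456 rat windows in the table, and the 4 below it belonged to Hdac9, Hdac8, Kat6b and Kat14. Median GC content was 60.7% in the members and 52.3% in all windows. Writers and erasers were alike in this, with 92% and 93.8% of their windows over the ratio of 0.6.

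The GC box (GGGCGG) was found in 63.2% of the members' windows and in 34.9% of all windows. CCAAT was found in 49.1% against 37.7%. The ETS core CCGGAAG was found in 15.8% against 9.22%, and the E-box CACGTG in 8.77% against 6.65%. TATAAA occurred in none of the 57 windows, and in 14.3% of all windows. The NRF1 core GCATGCGC was in 1.75% against 2.66%. These are matches of letters on both strands, overlaps between motifs were not removed, and the table of all windows includes genes of every kind.

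Total counts ranged from 28318383 to 85977002 per library, and the median total of the nicotine group was 1.70 times that of the controls. The 70 genes held 0.233% to 0.261% of the counts. Levels are given as CPM, each count relative to the size of its library, after TMM scaling, a correction that assumes most genes do not change. CPM is not corrected for transcript length, so levels were compared between libraries and not between genes. The 9 hormone-cell genes of the pituitary, among them Gh1, Prl and Pomc, summed to 113973 to 176618 CPM in the nicotine libraries and to 146246 to 159867 CPM in the controls, as the label of the tissue says. Markers of other cells moved with the groups, though edgeR called none of them and DESeq2 called 1, Acta2 of smooth muscle (adjusted p of 0.00151). All 5 posterior lobe markers had a positive log2 fold change, from 1.40 to 2.28, with summed levels of 82.3 to 233 CPM against 6.8 to 76.5 CPM. Each had an unadjusted p under 0.05 in edgeR, against 3.13% of all genes in that direction. The 5 smooth muscle and pericyte markers summed to 37.4 to 200.2 CPM against 40.7 to 53.8 CPM, and the 4 endothelial markers to 87.7 to 137 CPM against 69.3 to 89.4 CPM. Negative values were found for the 3 fibroblast genes (220.2 to 386 CPM against 467 to 631 CPM), the 4 macrophage genes (50.3 to 91.7 against 86.6 to 96.0 CPM) and the 5 erythroid and neutrophil genes (1637 to 5139 against 4308 to 9262 CPM). Both lymphocyte genes tested were also negative (sums of 1.0 to 1.4 against 1.4 to 5.0 CPM), and the 3 stem and folliculostellate genes were positive (244 to 347 against 237 to 287 CPM). In edgeR the unadjusted p was also under 0.05 for 2 smooth muscle, 3 endothelial, 3 fibroblast, 2 macrophage and 5 erythroid and neutrophil genes. So it was for 1 hormone-cell gene, but for no lymphocyte, stem or folliculostellate gene. The background was 3.13% of all genes higher and 3.01% lower. The part of these cells in the results below was not tested. In bulk RNA, fewer cells of a type and less RNA per cell cannot be told apart.

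All 70 genes passed the filter on low counts and were tested among 17292 genes with edgeR's quasi-likelihood test. The criteria of the study were kept, so that a call needed a fold change above 1.5 and a Benjamini-Hochberg adjusted p below 0.1. No histone enzyme gene was called, and 0% of all genes tested were. The lowest adjusted p of a member was 0.76, shared by Prmt8 and Setd1a. At an unadjusted p under 0.05 edgeR found 3 of the 70 genes, against 1062 of all genes. Setd1a was higher in the nicotine group, 1.43% of the members against a background of 3.13% of all genes. Prmt8 and Hdac9 were lower, 2.86% against 3.01%. DESeq2, the tool named in the study's methods, called none of the 70 genes. It called 62 of 24539 genes, or 0.253%, a set taken without the filter on low counts. Of the 17292 genes tested in edgeR, it called 61.

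Most differences were small relative to the variation between rats. The fold change of 1 member, Prmt8, was over 1.5 in either direction, against 1670 of all genes (9.66%). For 38 of the 70 genes (54.3%) the whole 95% confidence interval of the difference lay within 1.5-fold, against 32.9% of all genes tested. These 38 included Hdac1, Hdac2, Hdac3, Kdm1a, Ezh1, Sirt1 and Prmt5. The coefficient of variation between rats fitted by edgeR had a median of 17.8% in the members and 20.8% in all genes tested. Its part in these contrasts was not tested. For the other 32 genes the interval reached past 1.5-fold in at least 1 direction, so a difference of that size could not be set aside at this number of rats.

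**Figure D1:**
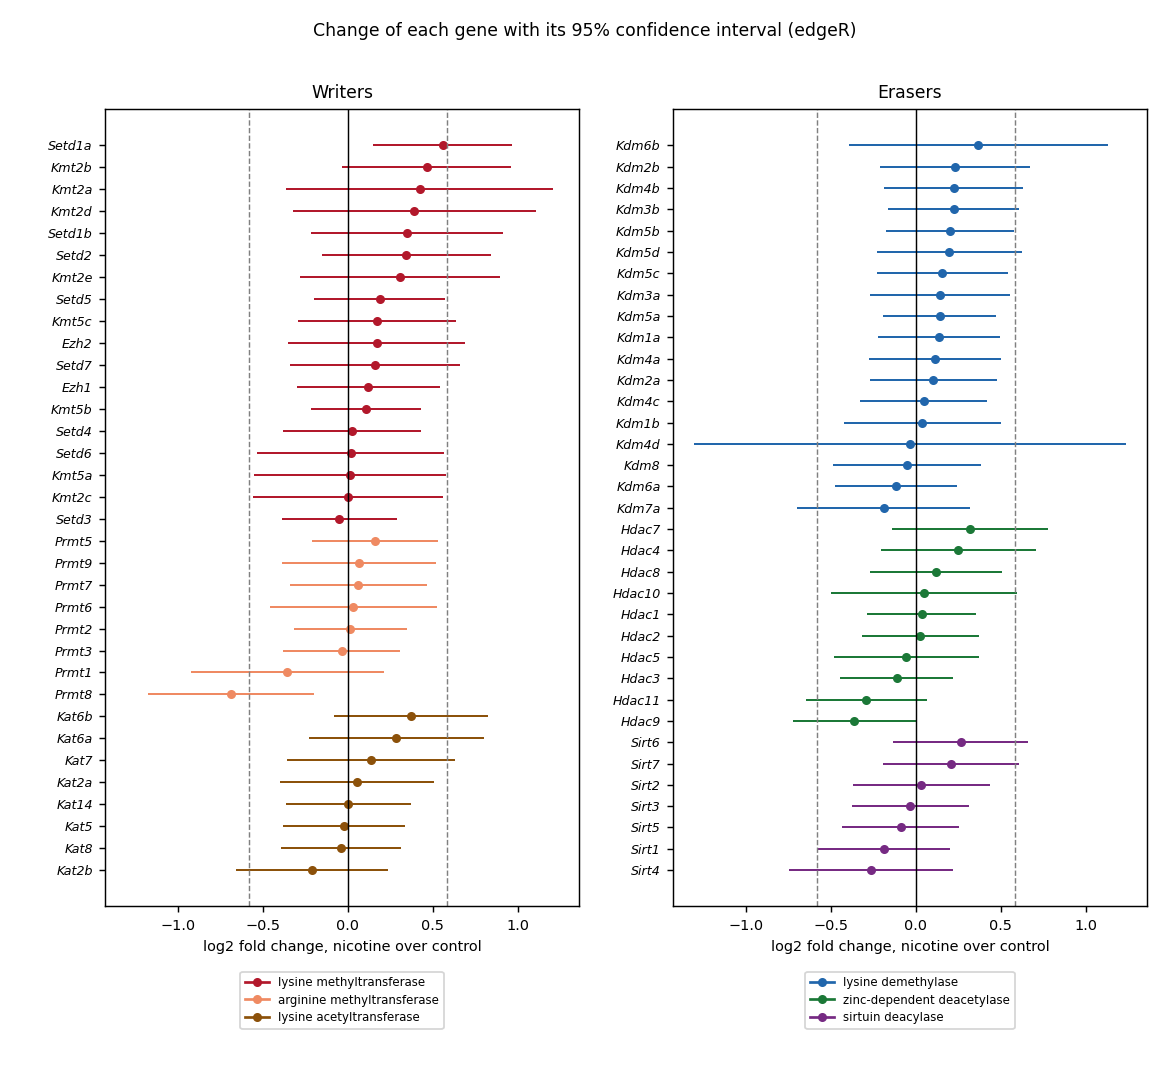
The log2 fold change of nicotine over control (x axis) is plotted for the 34 writers (left) and 35 erasers (right), with its 95% confidence interval from edgeR, coloured by enzyme class. Dashed lines mark a 1.5-fold difference, and the intervals of Setd1a, Prmt8 and Hdac9 do not reach 0.

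In direction, 50 of the 70 genes had a positive log2 fold change and 20 a negative one (71.4% and 28.6%), against 51% and 49.0% of all genes. With library sizes alone, which moved the median of all genes from 0.01 to 0.06 on the log2 scale, 58 were positive and 12 negative. The median log2 fold change was 0.09 over the writers and 0.05 over the erasers. It was 0.17 over the lysine methyltransferases, with 16 of 18 genes positive, and 0.14 over the lysine demethylases, with 14 of 18. The arginine methyltransferases (0.02), lysine acetyltransferases (0.03), zinc-dependent deacetylases (0.03) and sirtuins (-0.03) lay closer to the median of all genes, although that of the acetyltransferases was 0.16 without control replicate 3. These medians are descriptions and were not tested, since genes of a class are not replicates of an exposure.

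The shift of the 2 larger classes was not a shift of whole groups. The deviation of each library from the mean of all 6 on the log2 CPM scale had a median over the lysine methyltransferases of 0.15, 0.02 and 0.25 in nicotine replicates 1, 2 and 3. In control replicates 1, 2 and 3 it was -0.34, 0.07 and -0.01. Nicotine replicate 2 thus lay among the controls, and control replicate 1 stood below all the others. The lysine demethylases gave -0.08, 0.25 and -0.03 after nicotine and -0.16, -0.09 and 0.08 without it. Nicotine replicate 2 alone was far above the rest for this class. It was the highest library for 13 of 18 demethylase genes (72.2%), and for 25 of all 70 members (35.7%), against 26.9% of all genes tested. The same library was the lowest for 12 of the 70 members (17.1%), against 26.8% of all genes tested. Over all genes tested, the median deviation was between 0.00 and 0.02 in every library. Without nicotine replicate 2 the demethylases' median log2 fold change was 0.01, with 9 genes positive and 9 negative, and that of the lysine methyltransferases was 0.24, with 15 positive. Without control replicate 1 the lysine methyltransferases' median was 0.10, also with 15 positive, and without control replicate 3 it was 0.27, with all 18 positive. Over the members together, 36 were positive and 34 negative without nicotine replicate 2.

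**Figure D2:**
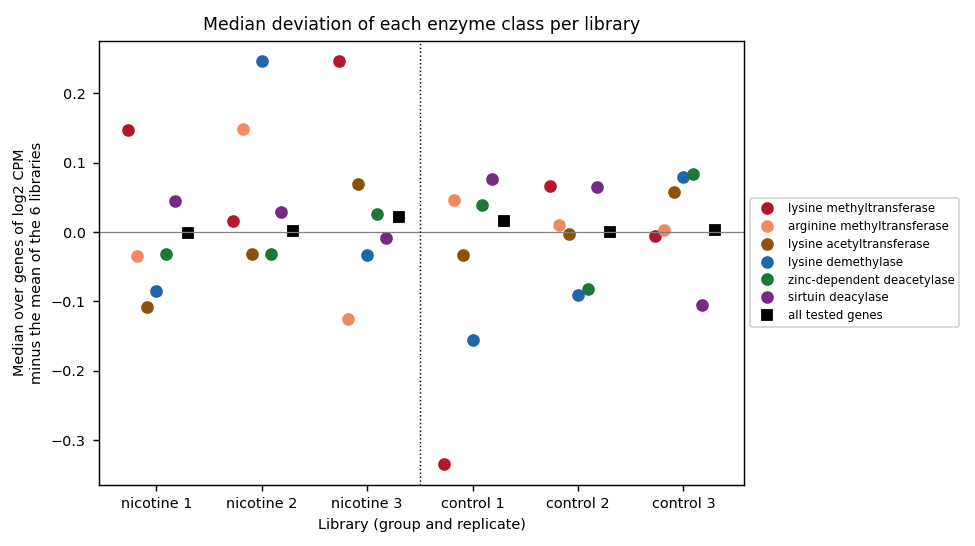
For each library (x axis) the point is the median over the genes of an enzyme class of the deviation of log2 CPM from the mean of the 6 libraries (y axis), with all tested genes as squares. Nicotine replicate 2 is at 0.25 for the lysine demethylases, and control replicate 1 is at -0.34 for the lysine methyltransferases.

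**Figure D3:**
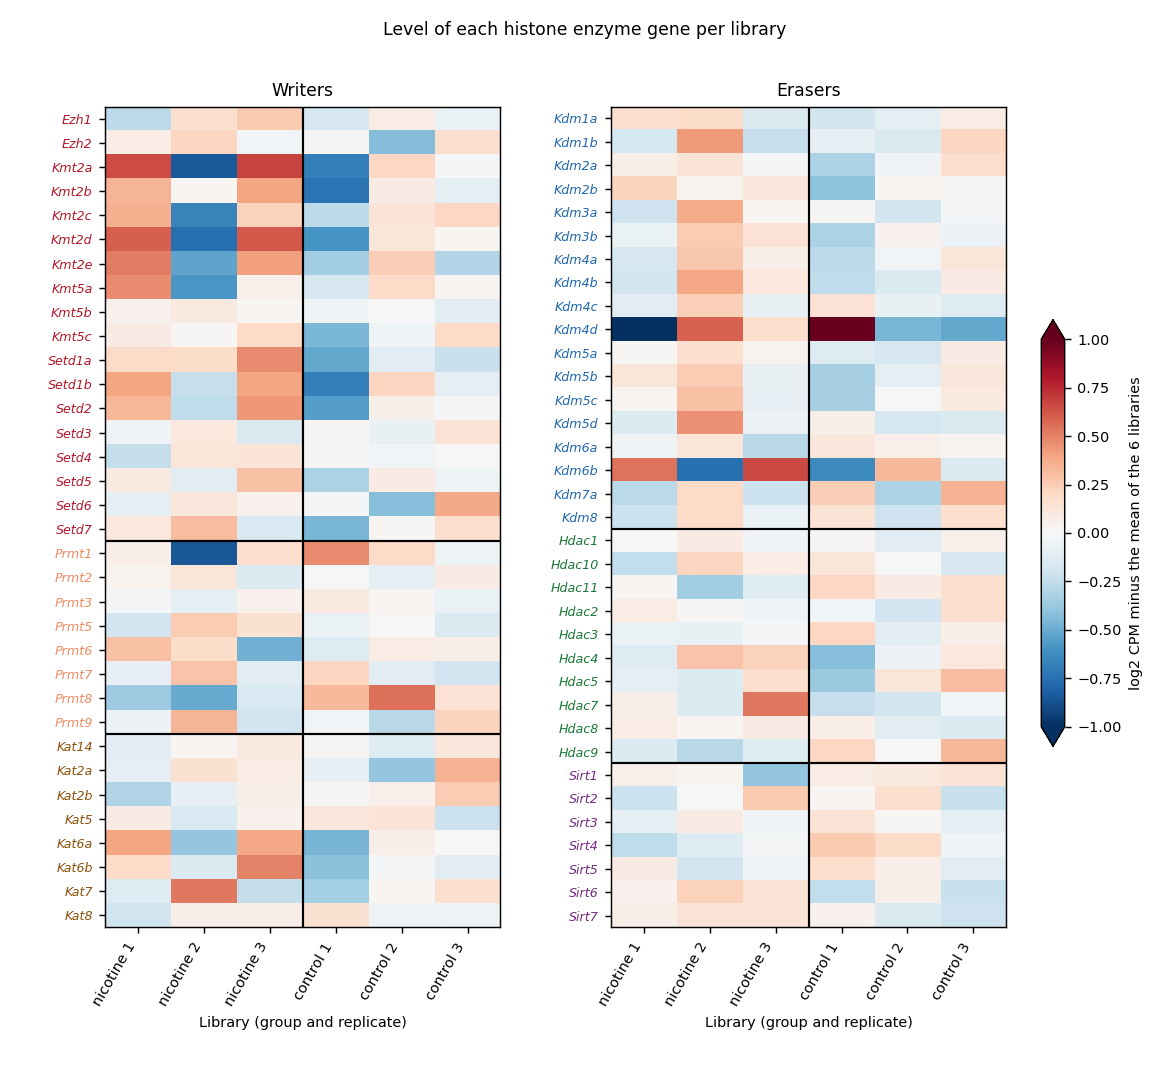
Colours give the log2 CPM of each writer (left) and eraser (right) in each library, as the difference from that gene's mean over the 6 libraries. Kmt2a, Kmt2d and Kdm6b are lowest in nicotine replicate 2 and control replicate 1, and values beyond 1 in either direction, as for Kdm4d, take the end colours.

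Setd1a, a catalytic subunit of a complex that methylates lysine 4 of histone H3, was at 19.0, 18.9 and 23.0 CPM in nicotine replicates 1, 2 and 3. It was at 11.6, 15.4 and 14.3 CPM in control replicates 1, 2 and 3. The lowest nicotine library lay above the highest control library. The log2 fold change was 0.56 (standard error 0.18, 95% interval 0.16 to 0.96), with an unadjusted p of 0.0112 and an adjusted p of 0.76 in edgeR's quasi-likelihood test. The difference did not pass the test over all genes, and DESeq2 gave an adjusted p of 0.433. It stayed between 0.46 and 0.65 when single libraries were omitted. Its counts were 315 to 1744 per library.

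The other genes of the Kmt2 and Setd1 families, and Setd2, were named after their values were seen, because several of them varied widely between the rats of a group. Kmt2a, the mammalian counterpart of fly trithorax, was at 42.5, 15.1 and 43.1 CPM in the nicotine libraries. Its control values were 16.8, 31.2 and 26.8 CPM. The groups overlapped, with nicotine replicate 2 the lowest of all 6 libraries and the other 2 nicotine libraries the highest. Kmt2d, a methyltransferase of enhancers, repeated this order at 59.6, 23.3 and 60.1 CPM against 26.1, 42.8 and 39.8 CPM. Kmt2e, whose SET domain has no established methyltransferase activity, was at 70.8, 34.6 and 66.2 CPM against 39, 59.2 and 40.5 CPM. Nicotine replicate 2 was again lowest, as it was for 5 of the 18 lysine methyltransferases (27.8%), against 26.8% of all genes tested. Kmt2c, the paralog of Kmt2d, was at 43.9, 21.6 and 40.3 CPM against 28.5, 37.5 and 39.6 CPM, and its log2 fold change was close to 0, with a standard error of 0.25.

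Kmt2b, a promoter-bound paralog of Kmt2a, was at 25.2, 20.2 and 26.3 CPM against 11.9, 21.1 and 18.7 CPM. Here nicotine replicate 2 lay between the upper control values, and control replicate 1 was the lowest. Its log2 fold change was 0.46 (standard error 0.22), with an unadjusted p of 0.0615 in edgeR, and it was 0.26 without control replicate 1. Setd1b, the paralog of Setd1a, was at 21.6, 14 and 21.7 CPM against 10.2, 19.1 and 15.4 CPM, with overlapping groups. Setd2, which trimethylates lysine 36 of H3 along transcribed genes, was at 37, 24.7 and 39.8 CPM against 20.1, 30.7 and 29.0 CPM. In both, nicotine replicates 1 and 3 were above all controls and nicotine replicate 2 was not. Without control replicate 1, the lowest library for both, the log2 fold change of Setd1b went from 0.35 to 0.14 and that of Setd2 from 0.34 to 0.18.

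Leaving out nicotine replicate 2 altered the count of small p-values among the histone enzymes more than leaving out any other library. Without it, 11 of the 70 genes had an unadjusted p under 0.05 in edgeR, against 2 or 3 when another library was left out. The 10 that were then higher (14.3% of the members, with a background of 3.88% of all genes) were Kmt2a, Kmt2b, Kmt2d, Kmt2e, Setd1a, Setd2, Kat6a, Kat6b, Kdm6b and Hdac7. Prmt8 was the 1 that was lower, with a background of 2.78%. Without this library the log2 fold change of Kmt2a was 0.76 (standard error 0.23) in place of 0.42 (standard error 0.35), and that of Kmt2d 0.71 (standard error 0.20) in place of 0.39 (standard error 0.32). Dropping control replicate 2 also raised the log2 fold changes of Kmt2a and Kmt2d, to 0.62 and 0.53. Dropping control replicate 3 raised them to 0.47 and 0.46. The remaining omissions lowered these values. That of Kmt2a was 0.22 without nicotine replicate 1, 0.20 without nicotine replicate 3 and 0.21 without control replicate 1, and Kmt2d was at 0.20, 0.19 and 0.21 in the same fits. None of the 11 was called, and the lowest adjusted p was 0.53. Nicotine replicate 2 was the most deeply counted library (85977002 counts). The 9 hormone-cell genes examined are not given by library here. With all 6 libraries the log2 fold change was positive for 5 of the 9 and negative for 4. The part of depth or of cell content in the low Kmt2 levels of nicotine replicate 2 was not tested. The label of this library gives no ground to leave it out, so the values with all 6 libraries stand as the result.

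**Figure D4:**
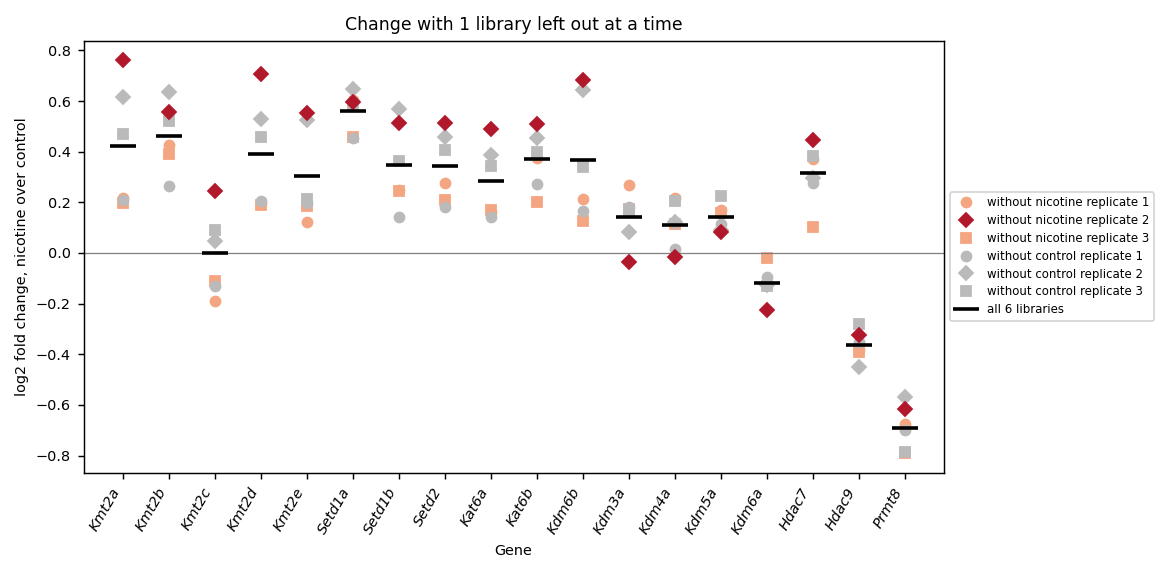
The log2 fold change of nicotine over control (y axis) is drawn for 18 genes (x axis) with all 6 libraries (black bars) and with 1 library left out at a time (symbols). Without nicotine replicate 2 (red diamonds) Kmt2a is at 0.76 and Kmt2d at 0.71, while Setd1a stays between 0.46 and 0.65 and Prmt8 between -0.79 and -0.57.

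The Polycomb methyltransferases did not differ beyond the spread of the rats. Ezh2, the form of dividing cells, was at 3.82 to 6.00 CPM over the 6 libraries, with a log2 fold change of 0.17 (standard error 0.23). Ezh1, the form of resting cells, was at 14.4 to 20.6 CPM with a log2 fold change of 0.12 (standard error 0.19). Kmt5b, which di- and trimethylates lysine 20 of histone H4, had the least variation of the lysine methyltransferases. It was at 36.8, 38.1 and 36.3 CPM against 34.5, 35.7 and 33.0 CPM. The groups did not overlap, but the log2 fold change was 0.11 (standard error 0.14), so a separation of this kind can be small. In all, the nicotine values were entirely above the control values for 5 members (7.14%, with 6.12% of all genes as the background) and entirely below for 4 (5.71%, with a background of 5.14%). The 5 were Setd1a, Kmt5b, Kdm2b, Sirt7 and Hdac1l, and the 4 were Prmt8, Hdac9, Hdac11 and Sirt1.

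Among the arginine methyltransferases, Prmt8, a membrane-bound enzyme known mainly from neurons, was at 4.54, 4.10 and 5.25 CPM in nicotine replicates 1, 2 and 3. Its control values were 7.31, 8.57 and 6.45 CPM. All 3 nicotine libraries were below all 3 controls. The log2 fold change was -0.69 (standard error 0.22, 95% interval -1.17 to -0.20), the largest difference of the 70 genes, with an unadjusted p of 0.00969 and an adjusted p of 0.76 in edgeR. DESeq2 gave an adjusted p of 0.339. It held from -0.79 to -0.57 when each library was left out. These levels rest on 198 to 453 counts per library. Prmt1, the main source of asymmetric dimethylarginine in cells and named after its values were seen, was at 222, 117 and 239 CPM against 294, 241 and 205 CPM. Its log2 fold change was -0.36 (standard error 0.26), and -0.11 without nicotine replicate 2, the lowest library. The log2 fold changes of the other 6 lay between -0.04 (Prmt3) and 0.16 (Prmt5).

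Kat6b, an acetyltransferase of histone H3, had the largest difference of its class. It was at 22.5, 17.7 and 27.7 CPM in the nicotine libraries and at 14.8, 19.3 and 18.2 CPM in the controls. The groups overlapped, and the log2 fold change was 0.37 (standard error 0.20, unadjusted p of 0.0946 in edgeR), or 0.20 without nicotine replicate 3. Its paralog Kat6a, named after its values were seen, was at 36.5, 21.3 and 36.3 CPM against 20.1, 29.1 and 27.7 CPM. Nicotine replicate 2 was near the lowest control, as for Kmt2a. Kat5, Kat8 and Kat14 each had a log2 fold change between -0.04 and 0.00 and an interval within 1.5-fold, and Kat2b had the lowest value of the class at -0.21 (standard error 0.20).

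Among the demethylases, values of those that act on lysine 9 of histone H3 are given for every library because that mark was also measured, in testis. Kdm4a, which removes the trimethyl mark, was at 36.3, 49.4 and 42.6 CPM against 34.2, 40.2 and 44.5 CPM. Kdm4b was at 31.9, 47.5 and 39 CPM against 30.4, 32.7 and 38.4 CPM. Kdm4c was at 30.0, 38.1 and 30.6 CPM against 35.7, 30.7 and 29.5 CPM. Nicotine replicate 2 was the highest library for all 3, and their groups overlapped. Kdm4d, the testis-enriched member, was barely detected, at 0.233, 0.782 and 0.578 CPM against 1.22, 0.359 and 0.343 CPM, or 11 to 72 counts per library. Its interval of -1.30 to 1.23 (log2) was the widest of the 70 genes.

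Kdm3a, which removes mono- and dimethyl groups from lysine 9, was at 21.6, 32.3 and 25.3 CPM against 25.1, 21.9 and 24.7 CPM. Kdm3b was at 22.5, 28.0 and 26.1 CPM against 18.8, 24.2 and 22.6 CPM. Kdm1a, the flavin-dependent demethylase LSD1, was at 44, 44.7 and 35.6 CPM against 34.6, 37 and 41.5 CPM. The groups overlapped in each. Kdm7a, a demethylase of lysines 9 and 27, was at 9.33, 12.9 and 9.72 CPM against 13.3, 9.08 and 14.3 CPM. Over these 8 genes the log2 fold changes lay between -0.19 (Kdm7a) and 0.22 (Kdm3b and Kdm4b), and the lowest adjusted p was 0.841 in edgeR. Without nicotine replicate 2 those of Kdm3a (-0.04), Kdm4a (-0.02) and Kdm4c (-0.08) were below 0.

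The methyltransferases of lysine 9, whose symbols lie outside the naming rule, did not pass the test either. Setdb1 was at 21.0, 25.4 and 21.4 CPM against 21.3, 21.1 and 24.7 CPM, and its log2 fold change was 0.02 (standard error 0.17). Suv39h2 was at 3.97, 3.09 and 2.38 CPM against 2.99, 3.35 and 2.69 CPM. Ehmt2, known as G9a, was at 68.0, 98.7 and 71.5 CPM against 56.8, 65.1 and 78.8 CPM. Its partner Ehmt1 was at 22.7, 25.5 and 24.0 CPM against 18, 18.9 and 21.1 CPM, above all controls, with a log2 fold change of 0.32 (standard error 0.16) and an unadjusted p of 0.0746 in edgeR. Suv39h1 was not analysed here.

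Kdm6b, a demethylase of trimethylated lysine 27, had the largest difference of the demethylases and the widest spread after Kdm4d. It was at 33.7, 13.7 and 36.6 CPM in the nicotine libraries and at 14.8, 28.9 and 20.9 CPM in the controls. This is the order seen for Kmt2a and Kmt2d, with nicotine replicate 2 and control replicate 1 lowest. The log2 fold change was 0.37 (standard error 0.34), and 0.68 (standard error 0.24) without nicotine replicate 2. It was 0.21 without nicotine replicate 1, 0.13 without nicotine replicate 3, 0.16 without control replicate 1 and 0.64 without control replicate 2. Kdm6a, its X-linked paralog, was at 29.1, 32.6 and 24.8 CPM against 32.3, 31.0 and 30.6 CPM. The ratio of Kdm6a to Kdm6b counts within a library was 0.865, 2.38 and 0.677 after nicotine, compared with control ratios of 2.18, 1.07 and 1.46, so the groups overlapped (exact two-sided permutation test, p = 0.6). Kdm2b, which binds unmethylated CpG, was at 11.1, 9.76 and 10.3 CPM against 7.20, 9.63 and 9.59 CPM. Its groups did not overlap, and the log2 fold change was 0.23 (standard error 0.20), or 0.11 without control replicate 1.

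**Figure D5:**
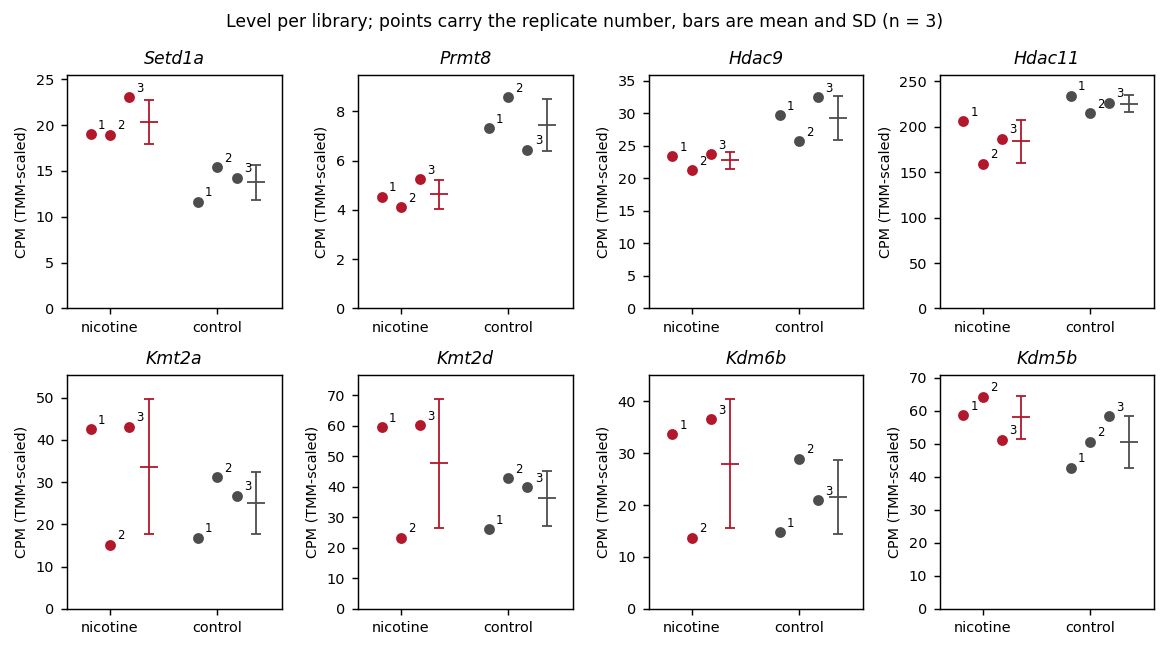
Points show the CPM of 8 genes (y axes, from 0) in the nicotine and control libraries, labelled with the replicate number, with bars for the mean and SD of 3 libraries. Setd1a, Prmt8, Hdac9 and Hdac11 have groups that do not overlap, whereas Kmt2a, Kmt2d and Kdm6b are lowest in nicotine replicate 2.

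Of the zinc-dependent deacetylases, Hdac9, a class IIa enzyme that represses MEF2 target genes, was at 23.4, 21.3 and 23.7 CPM in the nicotine libraries. It was at 29.7, 25.8 and 32.5 CPM in the controls. All nicotine libraries were below all controls. The log2 fold change was -0.36 (standard error 0.16, 95% interval -0.72 to -0.01), with an unadjusted p of 0.0466 and an adjusted p of 0.806 in edgeR. The unadjusted p was over 0.05 in 5 of the 6 fits that left out a library, from 0.0697 to 0.168. Hdac11, the only class IV enzyme, was at 206, 159 and 187 CPM against 234, 215 and 226 CPM, again with all nicotine values below the controls. The difference of -0.29 on the log2 scale had a standard error of 0.16 (unadjusted p of 0.0954 in edgeR).

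The nuclear class I deacetylases varied little. Hdac1 was at 102 to 117 CPM over the 6 libraries, Hdac2 at 63.0 to 81.1 CPM and Hdac3 at 64.3 to 80.5 CPM, and the 3 log2 fold changes lay between -0.11 and 0.03. The ratio of Hdac1 to Hdac2 counts within a library was 1.41 to 1.62 over all 6 libraries. The log2 difference of this ratio between groups was 0.0014 (exact two-sided permutation test, p = 1). Hdac1l was at 2.16, 2.47 and 2.66 CPM against 2.1, 1.91 and 1.93 CPM, with a log2 fold change of 0.31 (standard error 0.25).

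The sirtuins were evenly divided, with 3 of 7 genes positive. Sirt4, a mitochondrial member, had the largest difference of the class. It was at 4.07, 4.44 and 4.84 CPM against 5.83, 5.52 and 4.73 CPM, with a log2 fold change of -0.26 (standard error 0.22). Sirt7, a nucleolar member, was at 11.5, 12.0 and 12.1 CPM against 11.4, 9.99 and 9.54 CPM, and Sirt1, a nuclear deacetylase, at 21.6, 21.3 and 15.9 CPM against 22.0, 22.2 and 22.8 CPM. Neither pair of groups overlapped. For Sirt1, nicotine replicate 3 made up most of the difference, since the log2 fold change of -0.19 became -0.06 without it. For Sirt7 it was 0.21 (standard error 0.18).

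Ratios of paralogs within a library, which do not depend on library scaling, were compared for 5 pairs. With 3 rats against 3 the smallest p that an exact permutation test can give is 0.1. The Ezh2 to Ezh1 ratio was 0.246 to 0.380 after nicotine and 0.211 to 0.353 in control libraries (p = 0.8, exact). The Kat2a to Kat2b ratio was 2.94 to 3.43 against 2.15 to 3.11 (p = 0.2, exact), and the Kdm5c to Kdm5d ratio 1.78 to 2.24 against 1.51 to 2.36 (p = 0.9, exact). All 5 adjusted p-values were 1 by the Benjamini-Hochberg method.

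Enzymes and subunits beyond the naming rule were examined in the same fit, and none was called. Of 21 other histone methyltransferases, 18 had a positive log2 fold change, against 51% of all genes, and the median was 0.19. An unadjusted p under 0.05 with a higher level after nicotine was found for 3 of the 21 in edgeR, with a background of 3.13%, and nicotine values entirely above the controls for 5, with a background of 6.12%. Prdm16 was at 2.40, 2.32 and 2.61 CPM against 1.29, 1.49 and 0.475 CPM, with a log2 fold change of 1.15 (standard error 0.37). Mecom was at 8.61, 8.73 and 9.67 CPM against 6.43, 5.58 and 5.79 CPM, a log2 fold change of 0.61 (standard error 0.20). Both belong to the PRDM family of transcription regulators. Carm1, an arginine methyltransferase and coactivator, was at 30.8, 44.4 and 32.8 CPM against 21.5, 26.2 and 26.1 CPM, a log2 fold change of 0.55 (standard error 0.19). In all 3 the groups did not overlap, and the adjusted p was 0.76.

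Of the 10 other acetyltransferases, 8 were positive, with a median of 0.09. Of the 8 other demethylases, 6 were positive, with a median of 0.10. The 22 complex subunits and corepressors had 14 positive values and a median of 0.07. Jarid2, a partner of the Polycomb complex, was the 1 among these 22 with an unadjusted p under 0.05 in edgeR. The background was 3.13% of all genes higher. It was at 10.2, 8.52 and 11.0 CPM against 6.46, 6.58 and 7.66 CPM, without overlap, with a log2 fold change of 0.52 (standard error 0.20) and an adjusted p of 0.803.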

How the data were processed

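Pituitary RNA of 3 nicotine and 3 control rats was sequenced by the authors as strand-specific paired-end libraries, mapped to rn7 with HISAT2 2.1.0, and counted with featureCounts over the ncbiRefSeq gene models of UCSC. The deposited values are raw counts per gene symbol, without normalization. The strand setting, the treatment of multimapping reads, and the counting of reads or of pairs are not given in the sources used here, so reads of antisense partners and near-identical copies cannot be told apart. The labels' extraction protocol speaks of testis only, while their tissue field gives the pituitary gland.

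Counts were analysed in R 4.3.3 with edgeR 4.0.16 (TMM, filterByExpr, quasi-likelihood test, Benjamini-Hochberg adjustment over 17292 genes), and with DESeq2 1.42.0 as an alternative. Of 33294 symbols, 24546 had a count. Intervals of fold changes come from the edgeR fit. SDs are over 3 rats. The p-values set the difference between groups against the spread between these rats, which may have shared a dam within a group. The log2 CPM deviations use a prior count of 2. Depth was 28318383 to 85977002 counts, and the lowest member, Kdm4d, had 183 counts over all libraries. The procedure was tested on simulated data with known changes.

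The members and lists were chosen with earlier results of these data known. Values per library are given for members with an unadjusted p under 0.05, for those whose groups do not overlap, for the largest difference in each class and for the enzymes of H3 lysine 9, and for other genes where the text says so. For genes outside the naming rule, those with an unadjusted p under 0.05 (at most 3 a list) and the lysine 9 methyltransferases are named.

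Alternatives were DESeq2, RLE size factors, unscaled library sizes, a filter of 10 counts per library or none, thinning to 28318383 counts, calls at any fold change, a block for the replicate number, and omission of single libraries. The older quasi-likelihood fit of edgeR was added after seeing the data.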

Additional observations from a re-analysis of the deposited data

How the results depend on the processing

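No histone enzyme gene was called under any alternative run, from DESeq2 to leaving out each library. Over all genes, where edgeR called 0 (1062 at an unadjusted p under 0.05), DESeq2 called 62 (of 24539), library sizes alone 1 and no filter 2. Leaving out 1 library gave 0 to 9 (1 without nicotine replicate 2, 9 without nicotine replicate 3, 4 without control replicate 2). Between 2 and 11 of the 70 genes had an unadjusted p under 0.05 when a library was left out, with 11 only without nicotine replicate 2. The writers' median log2 fold change was 0.14 with library sizes alone and 0.029 to 0.16 with a library left out (0.029 without control replicate 1, 0.16 without control replicate 3). The erasers' median was -0.011 to 0.13 (-0.011 without nicotine replicate 2, 0.13 without nicotine replicate 1 or control replicate 3). The lysine acetyltransferases' median was 0.16 without control replicate 3.

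Near-0 differences changed sign. Kmt2c was at 0.0035 with DESeq2, 0.031 with library sizes alone, 0.0093 with no filter and 0.00037 with the older fit. Kdm4d was at 0.022 with library sizes alone. With a library left out, Kmt2c ranged from -0.19 to 0.24, Kdm4d from -0.43 to 0.67, Kdm4c from -0.083 to 0.13, Kdm4a from -0.017 to 0.22 and Kdm3a from -0.037 to 0.27. The cause was not tested. The direction of 41 of the 70 genes held in every alternative. Setd1a had an unadjusted p under 0.05 in all of them, and Prmt8 in all but 1, without control replicate 2 (0.0586).

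The values showed no pairing of the samples by replicate number. Correlations of the deviations of same-numbered libraries were 0.03, -0.20 and -0.08. No nicotine library correlated best with the control of its own number. The labels do not say whether equal numbers share a dam or a batch, and these correlations cannot settle it. With a replicate block edgeR called 2 of all genes and none of the 70. With 3 rats a group, 32 members had intervals that reach 1.5-fold. The lowest adjusted p of a member ranged from 0.339 to 1 over the alternatives.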

Other observations

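Genes that supply the cofactors of these enzymes were not part of the comparisons above. Of 11 such genes for acetyl-CoA, S-adenosylmethionine and NAD, 7 had a positive and 4 a negative log2 fold change, with a median of 0.09, and none was called. Nmnat2, a neuronal enzyme of NAD synthesis, was at 10.1, 8.74 and 10.2 CPM after nicotine and at 6.87, 6.92 and 7.45 CPM in controls. The groups did not overlap, and the difference was 0.45 on the log2 scale (standard error 0.19), with an unadjusted p of 0.0385 and an adjusted p of 0.806 in edgeR's quasi-likelihood test. Nmnat2 was the 1 among the 11 with an unadjusted p under 0.05 in edgeR, with a background of 3.13% of all genes higher. Groups did not overlap for 1 higher and 1 lower gene of the 11, against 6.12% and 5.14% of all genes. Of 14 cell cycle genes, 5 were positive and 9 negative, with a median of -0.11, and 0 had an unadjusted p under 0.05 in edgeR or DESeq2.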
